A study of Mus musculus with 4 samples.

Results

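The genes described here are 9 genes of the red blood cell lineage: the adult alpha globins Hba-a1 and Hba-a2, the adult beta globins Hbb-bs and Hbb-bt, the heme synthesis gene Alas2, the red cell membrane gene Slc4a1, the receptor gene Epor, the transcription factor gene Klf1 and the carbonic anhydrase gene Car2. They were taken by symbol from a count table of 35798 genes, in which all 9 were found. They had been selected on the difference between the genotypes in these same counts, so that difference is given below as a description and not as a test. Erythroid precursors in bone marrow, and in the mouse also in spleen, fill with hemoglobin, which joins alpha and beta globin chains that each hold a heme. Erythropoietin keeps these precursors alive through its receptor, and the factors GATA1 and KLF1 switch on the globin, heme and membrane genes together. NK cells are lymphocytes that are not known for making hemoglobin.

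RNA was sequenced from Ly49H+ NK cells, which carry an activating receptor for murine cytomegalovirus (MCMV). Cells from wild-type donors with the CD45.1 allele and from TNFR2-deficient (TNFR2 KO) donors with the CD45.2 allele were placed together in NSG mice, which were infected with MCMV a day later, and Ly49H+ cells of each CD45 type were sorted from spleen on D3.5. Each genotype had 2 libraries, and libraries of the same number shared 1 pool of spleens from 3 hosts, so the wild-type and TNFR2 KO cells of a replicate shared their animals. The labels do not say whether replicates 1 and 2 came from different hosts. Red blood cells were lysed and NK cells enriched by negative selection ahead of the sort. All mice were young adults. NSG hosts lack T, B and NK cells of their own but keep erythroid and myeloid cells, and as mice of the NOD background they carry CD45.1, the allele of the wild-type donors. Genotype, CD45 allele and sort gate therefore changed together and cannot be told apart in this design. In such bulk RNA, fewer cells of a type and less RNA per cell cannot be told apart either.

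Summed over the gene table, the libraries held between 32713256 and 39543650 estimated counts. The targeted gene Tnfrsf1b stood at 265 and 269 CPM in wild-type replicates 1 and 2, and at 55.1 and 58.6 CPM in TNFR2 KO replicates 1 and 2. All levels, these included, are CPM, counts scaled to library size and by the trimmed mean of M-values (TMM), and replicates are listed in the order 1, 2. NK cell markers such as Gzma, Gzmb and Il2rb were abundant in all 4 libraries, and the 18 NK markers measured summed to between 18181 and 34310 CPM per library.

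The globin pairs are nearly identical in sequence, which bears on every value given for a single copy. In the GRCm38 assembly Hba-a1 lies at chr11:32283511-32284465 and Hba-a2 at chr11:32296489-32297298, both on the plus strand. Hbb-bs lies at chr7:103826534-103828096 and Hbb-bt at chr7:103812524-103813996, both on the minus strand. The coding sequences of Hba-a1 and Hba-a2 are 426 bases long and differ at 1 base, C381T, counted from 1 at the first base of the start codon with the Hba-a1 base first. Those of Hbb-bs and Hbb-bt are 441 bases long and also differ at 1 base, C417T, with the Hbb-bs base first. The ends of the coding sequences are shown from base 351 of the alpha pair and base 387 of the beta pair to the last base ahead of the stop codon, with the differing base in capitals, because reads of each pair can be told apart only there or outside the coding sequence.

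Hba-a1: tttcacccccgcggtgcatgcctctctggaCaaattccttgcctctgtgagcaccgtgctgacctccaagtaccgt
Hba-a2: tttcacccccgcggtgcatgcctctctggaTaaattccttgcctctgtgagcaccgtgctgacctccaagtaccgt
Hbb-bs: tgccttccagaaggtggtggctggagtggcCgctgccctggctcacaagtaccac
Hbb-bt: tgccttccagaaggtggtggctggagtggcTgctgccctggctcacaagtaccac

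Over whole transcripts, 75.5% of the 31-base words of Hba-a1 and 92.6% of those of Hba-a2 also occurred in another gene, which for all but a small share was the other copy. For Hbb-bs and Hbb-bt the shares were 54.4% and 59.4%. The transcripts of Alas2, Slc4a1, Epor, Klf1 and Car2 shared none with another gene. Counts were estimated with kallisto, which divides reads between transcripts that share such words, so sums over a globin pair are firmer than the values of its copies.

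RefSeq promoter windows on GRCm38.p6 were at hand for 7 of the 9 genes, all but Slc4a1 and Car2. The 250 bases ahead of the annotated start are printed for 5 of these 7. Capitals mark CACCC, the core of the sites that KLF1 binds, and AGATAA or TGATAA, forms of the site that GATA factors bind, on either strand. On the opposite strand the former reads GGGTG and the latter TTATCT or TTATCA. The window of Hba-a1 is not printed, since 297 of its 300 bases form an unbroken stretch of that of Hba-a2.

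Hba-a2 (chr11:32296242-32296491, plus strand): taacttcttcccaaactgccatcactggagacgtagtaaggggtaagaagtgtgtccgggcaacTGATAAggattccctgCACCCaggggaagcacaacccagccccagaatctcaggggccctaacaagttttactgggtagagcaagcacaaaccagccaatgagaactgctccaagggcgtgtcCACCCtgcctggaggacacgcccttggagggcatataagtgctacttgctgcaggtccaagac
Hbb-bs (chr7:103827929-103828178, minus strand): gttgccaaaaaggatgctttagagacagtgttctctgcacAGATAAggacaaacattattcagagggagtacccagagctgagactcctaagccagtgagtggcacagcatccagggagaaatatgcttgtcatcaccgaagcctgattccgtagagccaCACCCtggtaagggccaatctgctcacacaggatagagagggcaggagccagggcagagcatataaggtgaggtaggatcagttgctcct
Alas2 (chrX:150547167-150547416, plus strand): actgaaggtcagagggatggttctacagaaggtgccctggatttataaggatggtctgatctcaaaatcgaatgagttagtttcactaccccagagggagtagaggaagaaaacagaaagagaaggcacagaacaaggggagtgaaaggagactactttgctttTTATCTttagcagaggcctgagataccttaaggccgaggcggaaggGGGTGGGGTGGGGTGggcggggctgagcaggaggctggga
Epor (chr9:21963577-21963826, minus strand): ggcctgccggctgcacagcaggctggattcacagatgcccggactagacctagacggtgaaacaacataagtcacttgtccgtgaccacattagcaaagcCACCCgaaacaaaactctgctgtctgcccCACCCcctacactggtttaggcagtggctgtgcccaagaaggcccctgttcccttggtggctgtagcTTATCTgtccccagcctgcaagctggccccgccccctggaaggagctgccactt
Klf1 (chr8:84901732-84901981, plus strand): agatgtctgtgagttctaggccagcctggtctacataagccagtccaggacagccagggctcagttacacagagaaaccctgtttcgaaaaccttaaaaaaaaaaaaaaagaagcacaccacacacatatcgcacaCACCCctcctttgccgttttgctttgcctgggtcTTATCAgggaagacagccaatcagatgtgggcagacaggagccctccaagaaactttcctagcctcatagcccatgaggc

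CACCC occurred in 7 of the 7 windows, as in 52% of all 32841 mouse promoters of that length. AGATAA or TGATAA occurred in 6 of 7, the window of Hbb-bt being without either, against 16.6% of all promoters. Both kinds stood together in 6 of 7, against 7.11% of all. The near-identical windows of Hba-a1 and Hba-a2 are counted separately in each of these numbers. In the Hbb-bs window CACCC began 90 bases and TATAA 29 bases ahead of the start. In Hba-a2, 2 copies of CACCC began 170 and 63 bases ahead. In Alas2, 3 copies on the opposite strand lay side by side within the last 40 bases, and they overlap none of the other motifs searched. A match describes the letters of the window and not a bound site.

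Transcripts of the adult globins were about 5-fold lower in TNFR2 KO than in wild-type cells. Summed over the 4 genes, they stood at 254 and 251 CPM in wild-type and at 48.6 and 51.9 CPM in TNFR2 KO libraries. The group means were 252 ± 2.35 and 50.2 ± 2.36 CPM (SD, n = 2 libraries each), a 5.02-fold difference. The replicates of a genotype were close together and the genotypes did not overlap. Within replicate 1 the wild-type level was 5.23-fold that of TNFR2 KO, and within replicate 2 it was 4.83-fold. As a share of all counts this was 0.0259% and 0.0256% in the wild-type libraries and 0.00475% and 0.00508% in the TNFR2 KO libraries.

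Hba-a1, the main alpha globin transcript here, stood at 125 and 131 CPM in wild-type and at 24.7 and 24.1 CPM in TNFR2 KO libraries. The edgeR log2-fold change, taken throughout as TNFR2 KO relative to wild-type, was -2.39, or 5.23-fold lower, and the genotypes were far apart. Hba-a2, the second copy, stood at 15.8 and 9.25 CPM in wild-type and at 1.39 and 3.57 CPM in TNFR2 KO libraries. Its log2-fold change was -2.37, yet its replicates differed 1.71-fold within wild-type and 2.56-fold within TNFR2 KO, so that the wild-type excess was 11.4-fold in replicate 1 and 2.59-fold in replicate 2. The alpha pair summed to 140 CPM in both wild-type libraries, and to 26.1 and 27.7 CPM with TNFR2 KO. The uneven split between the copies was thus not seen in their sum.

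Hbb-bs, the main beta globin transcript, stood at 89.5 and 88.9 CPM in wild-type and at 17.7 and 18.0 CPM in TNFR2 KO libraries, with a log2-fold change of -2.32. Hbb-bt, the less abundant copy here, stood at 24.1 and 21.5 CPM in wild-type and at 4.76 and 6.22 CPM in TNFR2 KO libraries, with a log2-fold change of -2.07. Neither gene overlapped between the genotypes. The beta pair summed to 114 and 110 CPM in wild-type and to 22.5 and 24.2 CPM in TNFR2 KO libraries, a 4.80-fold difference beside 5.22-fold for the alpha pair.

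In CPM not corrected for transcript length, alpha and beta globin transcripts were close to balanced in every library. The ratio of summed alpha to summed beta CPM was 1.24 and 1.27 in wild-type and 1.16 and 1.14 in TNFR2 KO libraries. The TNFR2 KO ratios lay below both wild-type ratios, but 2 libraries against 2 cannot give an exact permutation p under 0.333, and no test was made. Hbb-bs made up 78.8% and 80.5% of the beta sum in wild-type and 78.8% and 74.3% in TNFR2 KO libraries, ranges that overlapped. Hba-a1 made up 88.7% and 93.4% of the alpha sum in wild-type and 94.7% and 87.1% in TNFR2 KO libraries, with no order between the genotypes. Embryonic and theta-like globins had few or no counts. Of the 6 further globin genes in the table, Hba-x, Hbq1a, Hbb-bh1, Hbb-bh2 and Hbb-y had no count in any library, which allows at most 3 counts, or 0.0936 CPM in the shallowest library. Hbq1b had 2 and 7 counts in the wild-type libraries and none in the TNFR2 KO libraries.

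**Figure D1:**
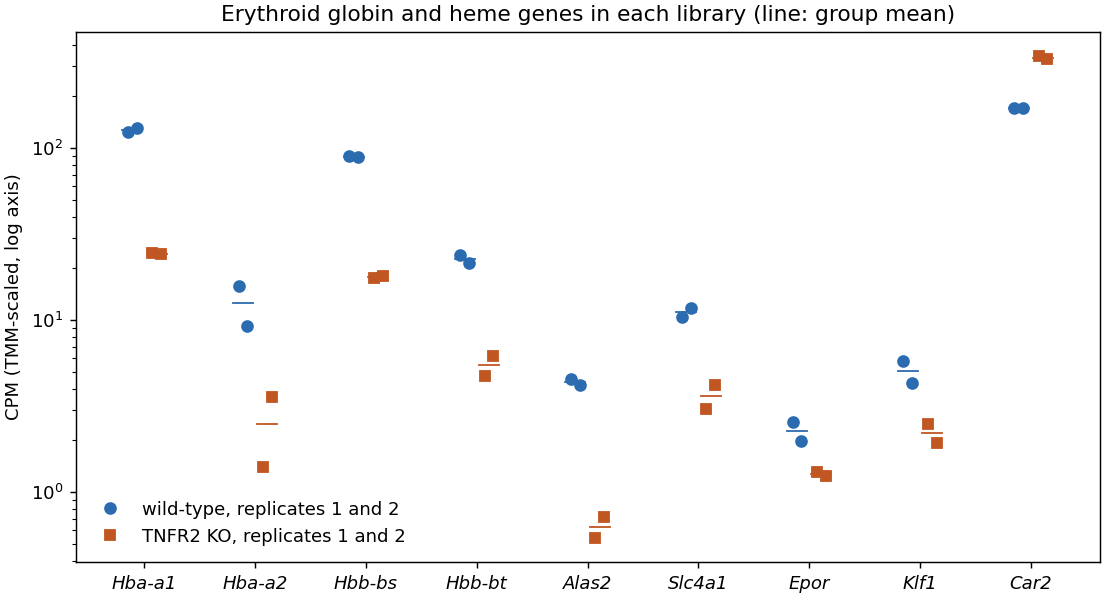
CPM of each of the 9 genes (log axis) in the 4 libraries, with wild-type as circles, TNFR2 KO as squares and the group mean as a line. For 8 genes both wild-type libraries lay above both TNFR2 KO libraries, as they did for 37.6% of all genes tested, and for Car2, at 171 against 331 and 342 CPM, they lay below. Hba-a2 had the widest spread between replicates.

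Alas2, the erythroid form of the enzyme that starts heme synthesis, showed the largest difference of the 9 genes. It lies at chrX:150547375-150570638. Its level was 4.54 and 4.204 CPM in wild-type and 0.543 and 0.718 CPM in TNFR2 KO libraries, which rests on 172 and 155 counts against 21 and 23. The log2-fold change was -2.80, or 6.96-fold, with the genotypes clearly apart.

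The other genes of the heme pathway had smaller differences. The other 13 heme synthesis and mitochondrial import genes were all tested and none passed both thresholds of the genotype comparison, which are 0.05 for the adjusted p and 1, in either direction, for the log2-fold change. Their median log2-fold change was -0.06, in a range from -0.95 to 0.16, beside -0.003 over the 13822 genes tested. At adjusted p alone 5 were lower and 1 was higher in TNFR2 KO cells. Of the most abundant, Tmem14c (a mitochondrial carrier of heme precursors) and Alad (the enzyme of the step after Alas2) had log2-fold changes of -0.02 and -0.10. Neither was past the threshold, and the direction of both turned as libraries were left out. Alas1, the housekeeping form of Alas2, is added here after its values were seen. It stood at 39.0 and 44.1 CPM in wild-type and at 21.4 and 21.6 CPM in TNFR2 KO libraries, with a log2-fold change of -0.95 ± 0.066 (SE) and an adjusted p of 1.37e-07 (edgeR's quasi-likelihood test, Benjamini-Hochberg), short of the fold threshold. It passed that threshold without wild-type replicate 1 (-1.03), with library size alone (-1.01) and when libraries were scaled on NK genes (-1.52).

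Slc4a1 encodes band 3, the anion exchanger of the red cell membrane. It lies at chr11:102348824-102366203 and stood at 10.5 and 11.7 CPM in wild-type and at 3.05 and 4.18 CPM in TNFR2 KO libraries. The log2-fold change was -1.63, or 3.09-fold, with 398 and 432 counts against 118 and 134. The genotypes did not overlap. The globin sum was 24.2 and 21.4 times Slc4a1 in wild-type and 15.9 and 12.4 times in TNFR2 KO libraries, so the globins differed more than Slc4a1 did in both replicates.

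Of the other 21 membrane and skeleton genes, all tested, 7 were lower, none was higher and 14 did not pass both thresholds, with a median log2-fold change of -0.88. Epb42, which links band 3 to the membrane skeleton, stood at 1.22 and 0.951 CPM in wild-type and at 0.259 and 0.343 CPM in TNFR2 KO libraries, with a log2-fold change of -1.85 ± 0.43 (SE) and an adjusted p of 0.00339 (edgeR, Benjamini-Hochberg). Without wild-type replicate 1 it was -1.65 and no longer past the threshold. Add2, a skeleton protein gene, stood at 3.27 and 3.61 CPM in wild-type and at 1.27 and 1.47 CPM in TNFR2 KO libraries, with a log2-fold change of -1.33 and an adjusted p of 0.000226 (edgeR). Kel, a blood group antigen gene, fell by 1.32, and it no longer passed without wild-type replicate 2 (-0.89) or without TNFR2 KO replicate 2 (-0.95). The 3 most abundant genes of this list, Epb41, Mpp1 and Gypc, are also expressed outside the red cell lineage and had log2-fold changes of 0.22, -0.48 and -0.33, none past the fold threshold. That of Epb41 turned to -0.35 when libraries were scaled on NK genes.

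Epor encodes the erythropoietin receptor and showed the smallest difference of the 8 genes that were lower in TNFR2 KO cells. It lies at chr9:21958897-21963506 and stood at 2.56 and 1.98 CPM in wild-type and at 1.32 and 1.25 CPM in TNFR2 KO libraries. The log2-fold change was -0.82, or 1.76-fold, on 97 and 73 counts against 51 and 40. The genotypes did not overlap, but the wild-type replicates differed 1.29-fold between themselves.

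Of the other 11 genes of erythropoietin signalling and transferrin uptake, 1 was lower, none was higher and 10 did not pass both thresholds, with a median log2-fold change of -0.14. The gene that passed was Tfr2, a transferrin receptor that partners with the erythropoietin receptor. It stood at 4.13 and 4.42 CPM in wild-type and at 1.3999 and 1.19 CPM in TNFR2 KO libraries, with a log2-fold change of -1.72 ± 0.20 (SE) and an adjusted p of 1.69e-05 (edgeR, Benjamini-Hochberg). The 3 most abundant genes, the kinase genes Pim1 and Jak2 and the signal transducer gene Stat5b, act downstream of many cytokine receptors. Their log2-fold changes were 0.15, -0.19 and -0.14, and that of Pim1 turned to -0.42 when libraries were scaled on NK genes.

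Klf1 encodes the erythroid Kruppel-like factor that activates the adult beta globin genes. It lies at chr8:84901928-84905291 and stood at 5.77 and 4.34 CPM in wild-type and at 2.51 and 1.94 CPM in TNFR2 KO libraries. The log2-fold change was -1.18, or 2.26-fold, and the genotypes did not overlap. It was -0.95, under the fold threshold, without wild-type replicate 1. The globin sum was 44.0 and 57.8 times Klf1 in wild-type and 19.4 and 26.8 times in TNFR2 KO libraries.

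Of the other 14 erythroid transcription factors, 8 were lower, none was higher and 6 did not pass both thresholds, with a median log2-fold change of -1.43. Gata2, a factor of early progenitors that is also a mast cell and basophil gene, stood at 69.2 and 68.5 CPM in wild-type and at 3.08 and 2.37 CPM in TNFR2 KO libraries, with a log2-fold change of -4.64 ± 0.084 (SE) and an adjusted p of 4.07e-13 (edgeR, Benjamini-Hochberg). Lmo2, which bridges GATA factors to other factors, stood at 30.0 and 30.7 CPM in wild-type and at 5.12 and 4.37 CPM in TNFR2 KO libraries, with a log2-fold change of -2.67. Bcl11a, a repressor of embryonic globins, fell by 2.07, and Tal1, a factor of blood stem cells and erythroid cells, fell by 1.82. Gata1, the factor that defines the lineage, is added after its values were seen, and stood at 6.91 and 6.65 CPM in wild-type and at 1.91 and 2.12 CPM in TNFR2 KO libraries, with a log2-fold change of -1.75 and an adjusted p of 1.81e-06 (edgeR). The 3 most abundant genes of the list, E2f2, Zfpm1 and Ldb1, are used by many cells and had log2-fold changes of -0.01, 0.23 and 0.20, which turned to -0.34 for Zfpm1 and -0.37 for Ldb1 when libraries were scaled on NK genes and were at most 0.02 from 0 for E2f2 with a library left out.

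Car2 went the other way. It encodes carbonic anhydrase 2, which interconverts carbon dioxide and bicarbonate in red cells and in many other cells, and lies at chr3:14886273-14900770. It stood at 171 CPM in both wild-type libraries and at 342 and 331 CPM in TNFR2 KO libraries. Group means were 171 ± 0.133 and 337 ± 7.86 CPM (SD, n = 2 libraries each), a log2-fold change of 0.98, or 1.97-fold higher in TNFR2 KO cells. The difference was 2.005-fold in replicate 1 and 1.94-fold in replicate 2, with 6474 and 6300 counts against 13239 and 10609. In CPM, the globin sum was 1.49 and 1.47 times Car2 in wild-type libraries, whereas Car2 was 7.05 and 6.38 times the globin sum in TNFR2 KO libraries.

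Of the other 16 red cell enzyme genes, 5 were lower, none was higher and 11 did not pass both thresholds, with a median log2-fold change of -0.52. Hmox1, which breaks heme down and is abundant in macrophages, stood at 199 and 207 CPM in wild-type and at 35.8 and 34.2 CPM in TNFR2 KO libraries, with a log2-fold change of -2.53 ± 0.040 (SE) and an adjusted p of 1.39e-13 (edgeR, Benjamini-Hochberg). Tmcc2, Trim10 and Trim58, genes known from erythroid cells, fell by 2.76, 2.60 and 2.01 on the log2 scale, all from under 5 CPM in wild-type, and Trim58 did not pass without wild-type replicate 2 (-1.86). The abundant Hk1 (a hexokinase gene) and Gpx1 (a peroxidase gene) had log2-fold changes of -0.13 and -0.82, short of the fold threshold. Car1, the other red cell carbonic anhydrase gene, is added after its values were seen. It stood at 16.3 and 16.1 CPM in wild-type and at 9.64 and 10.5 CPM in TNFR2 KO libraries, with a log2-fold change of -0.69 and an adjusted p of 5.02e-05 (edgeR), opposite in direction to Car2.

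**Figure D2:**
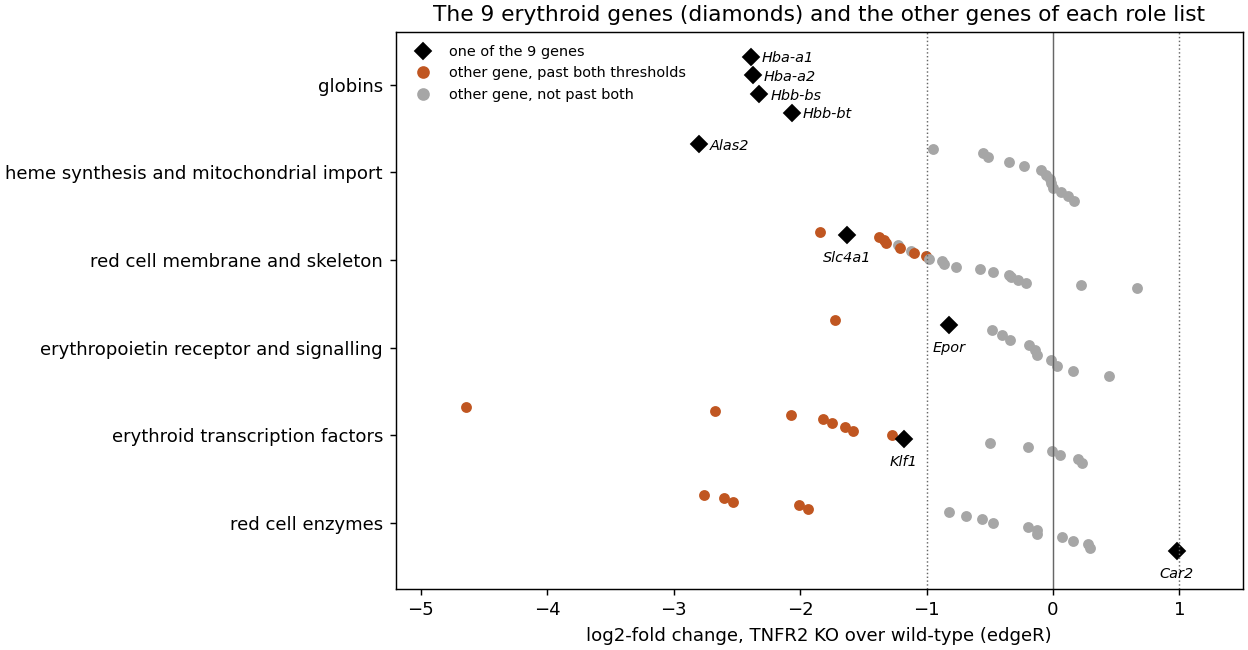
Log2-fold change, TNFR2 KO relative to wild-type (edgeR), for the 9 genes (black diamonds, named) and for the other tested genes of 6 role lists (orange where past both thresholds, grey otherwise), with dotted lines at the fold threshold. All 21 orange points lie to the left, and Car2, at 0.98, is the diamond on the right.

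Over the 6 lists together, 75 genes other than the 9 were tested, of which 21 were lower and none was higher. Their median log2-fold change was -0.47. The same thresholds were passed by 13.3% of all 13822 genes, 11.8% being lower and 1.56% higher in TNFR2 KO cells. At adjusted p alone 45 of the 75 were lower and 9 higher, where 50.4% of all genes passed in either direction, and at an unadjusted p under 0.05 the numbers were 47 and 10. DESeq2 called 20 of the 75 lower and none higher. Of the 9 genes themselves, 7 passed both thresholds as lower, namely all but Epor and Car2, which were under the fold threshold. Both wild-type libraries lay above both TNFR2 KO libraries for 8 of the 9, as for 37.6% of all genes, and the reverse held for Car2, as for 36.4% of all genes. Because the 9 were selected on this contrast, nothing is read from these counts.

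Set per kilobase of the longest coding transcript, so that genes can be compared, Hba-a1 led in wild-type cells with a mean of 183 CPM per kb. Hbb-bs followed at 142, Car2 at 95.5, Hbb-bt at 32.5 and Hba-a2 at 22.6 CPM per kb. Klf1, Slc4a1, Alas2 and Epor stood between 3.31 and 1.29 CPM per kb. In TNFR2 KO cells Car2 led with 188 CPM per kb, ahead of Hba-a1 at 34.9 and Hbb-bs at 28.4 CPM per kb. Alas2 was last there, at 0.309 CPM per kb, below Epor at 0.729 CPM per kb. The order of neighbours held in both libraries of a genotype except for Slc4a1 and Epor in TNFR2 KO cells, whose values overlapped.

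A measure that the choice of the genes had not used is the difference between the replicate numbers, taken as replicate 2 over replicate 1 with genotype in the model. None of the 9 genes passed a threshold between replicate numbers in edgeR's quasi-likelihood fit, where every Benjamini-Hochberg adjusted p lay between 0.9997 and 0.99994. Both thresholds were passed by 0.123% of all genes and the adjusted p alone by 0.232%. The 4 globins differed by between -0.08 and 0.04 on the log2 scale, Alas2 by 0.04 ± 0.25 (SE) and Car2 by -0.02 ± 0.029 (SE). Slc4a1 (0.27) and Klf1 (-0.40) had unadjusted p-values of 0.0486 and 0.0424 in edgeR, 2 of 9 genes where 4.72% of all genes were under 0.05. DESeq2 gave none of the 9 under 0.05 before adjustment. Klf1 was lower in replicate 2 in both genotypes, by 0.41 within wild-type and by 0.37 within TNFR2 KO on the log2 scale, whereas Hba-a2 was lower in replicate 2 within wild-type (-0.77) and higher within TNFR2 KO (1.36).

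**Figure D3:**
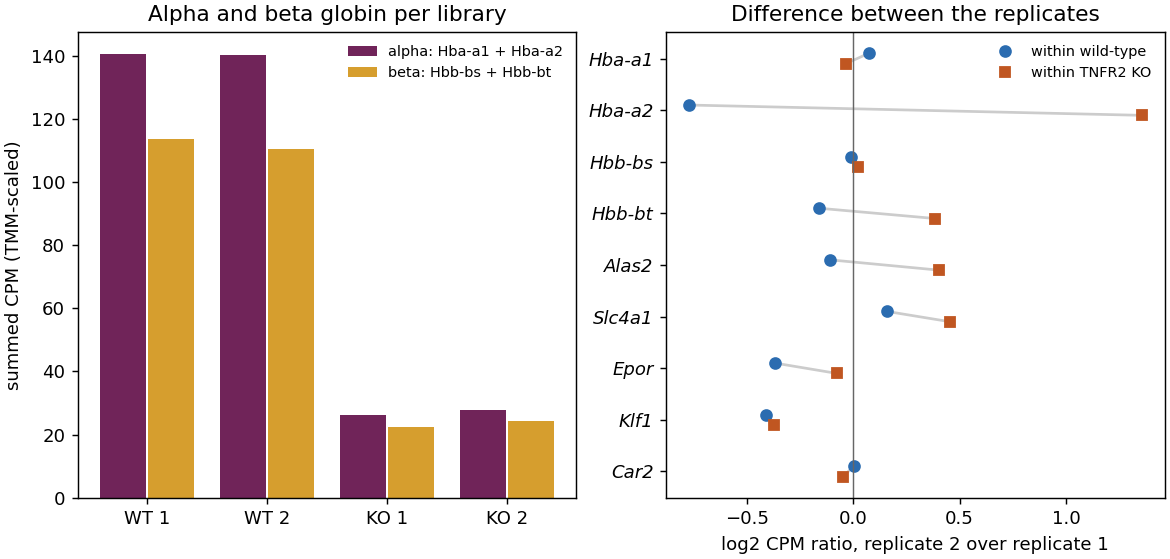
Left, summed alpha (Hba-a1 and Hba-a2) and beta (Hbb-bs and Hbb-bt) globin CPM in each library, with alpha at 140 CPM in both wild-type libraries. Right, log2 ratio of replicate 2 over replicate 1 for each gene within wild-type (circles) and within TNFR2 KO (squares), where Hba-a2 spans -0.77 to 1.36 and the other genes stay within 0.5 of 0.

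The genes with the most similar profile over the 4 libraries, by the distance between centred log2(CPM + 1) values, were not red cell genes for the globins. The 5 nearest to the globin sum among genes of at least 10 CPM were Serpinb1a, Fcna, Chil3, Oasl2 and Tlr1, at distances from 0.0727 to 0.0943. Chil3, a macrophage chitinase-like gene, stood at 64.9 and 62.5 CPM in wild-type and at 12.6 and 12.9 CPM in TNFR2 KO libraries. Fcna, which encodes ficolin A, stood at 27.0 and 26.2 CPM in wild-type and at 4.24 and 4.37 CPM in TNFR2 KO libraries. The nearest to Car2 were the NK receptor gene Klre1 at a distance of 0.0176, with 147 and 146 CPM in wild-type and 293 and 280 CPM in TNFR2 KO libraries, and Zfp831 at 0.0347. The nearest were Creg1 and Cln8 for Alas2, Oasl1 and Nfe2 for Slc4a1, Phactr2 and Cln6 for Epor, and Gm10163 and Slc12a2 for Klf1. Nfe2, itself an erythroid and megakaryocyte factor, was the only one of them on a role list. The added 1 CPM compresses the profiles of low genes such as Alas2 and Epor.

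Markers of other cells moved with the same contrast. The 15 measured erythroid markers, 6 of them among the 9 genes, summed to 272 and 278 CPM in wild-type and to 68.3 and 68.0 CPM in TNFR2 KO libraries, and 10 were lower and none higher. Hba-a1 and Hbb-bs made up most of these sums. The 9 erythroid markers outside the genes described here summed to 34.8 and 36.1 CPM in wild-type and to 18.4 and 17.8 CPM in TNFR2 KO libraries, a 1.95-fold difference. Macrophage markers summed to 1925 CPM in both wild-type libraries against 280 and 274 CPM, with 16 of 16 lower, led by Lyz2, Csf1r and Axl. Neutrophil or granulocyte precursor markers, led by Mpo, S100a9 and Ngp, summed to 938 and 960 CPM against 82.1 and 79.1 CPM, with 12 of 12 lower. Basophil or mast cell markers, led by Prss34, Mcpt8 and Cpa3, summed to 1288 and 1285 CPM against 105 CPM in both TNFR2 KO libraries, with 11 of 13 lower and 1 higher. Megakaryocyte or platelet markers summed to 116 and 114 CPM against 84.0 and 85.2 CPM, with 9 of 11 lower, and most of that sum was Itgb3, which had a log2-fold change of 0.17 that turned to -0.41 when libraries were scaled on NK genes.

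NK markers went the other way, from 18248 and 18181 CPM in wild-type to 34310 and 33924 CPM in TNFR2 KO libraries. Of 18, 6 were higher, none was lower and all 18 had a higher level at adjusted p alone in edgeR, with a median log2-fold change of 0.89, next to 0.98 for Car2. The fold between the genotypes was 5.02 for the globin sum and 4.04 for the erythroid markers (1.95 without the 6 shared genes). It was 6.94 for macrophage, 11.8 for neutrophil, 12.3 for basophil or mast cell and 1.36 for megakaryocyte or platelet markers. No marker gene of any list was without counts in all 4 libraries. The part of these cell types in the difference of the 9 genes was not tested.

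**Figure D4:**
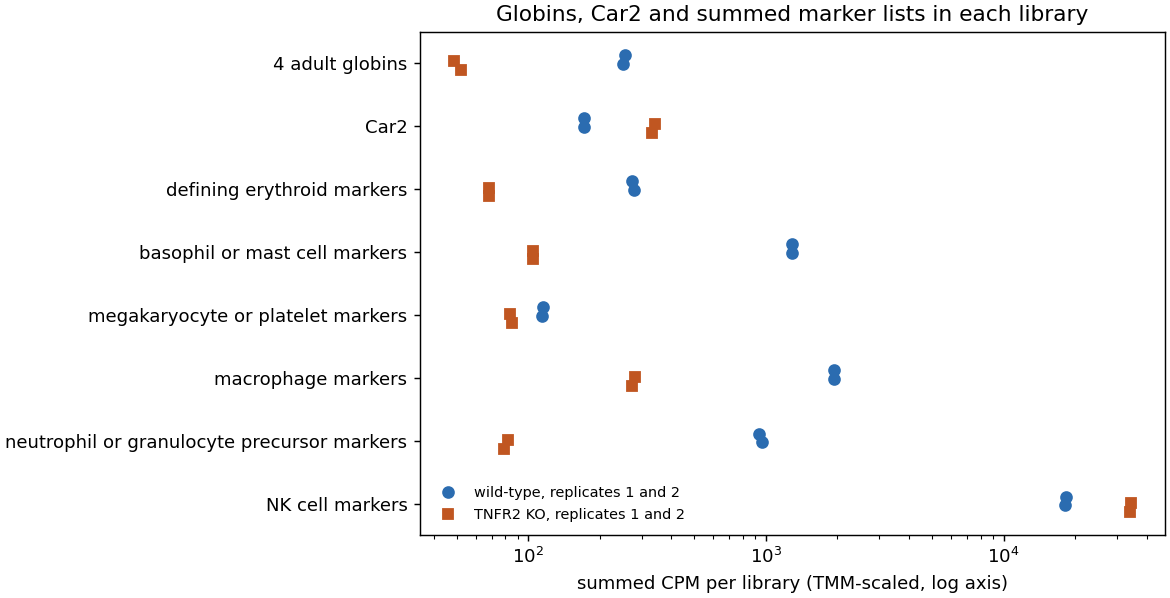
Summed CPM per library (log axis) of the 4 adult globins, of Car2 and of 6 marker lists, wild-type as circles and TNFR2 KO as squares. The globins and the 5 lists of erythroid and myeloid markers were higher in wild-type, and Car2 and the NK markers were higher in TNFR2 KO.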

How the data were processed

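RNA of 4 libraries, 2 wild-type and 2 TNFR2 KO, was prepared as stranded poly-A libraries and read in pairs. The authors trimmed reads with Trimmomatic (1.4), assigned them with kallisto (0.46.1) on mm10 and summed transcripts to genes with tximport, and they deposited estimated counts, not normalized, for each gene and library. The sources used here do not give the transcript annotation. kallisto divides reads among near-identical transcripts, which affects the globin copies.

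Estimated counts were rounded. The table's unnamed row held 0.0559% to 0.0728% of counts and was left out. Counts were analysed in R (4.3.3) with edgeR (4.0.16): TMM scaling, a filter on low counts, which left 13822 genes, and the quasi-likelihood test with Benjamini-Hochberg adjustment over all of them. A gene was called where its adjusted p was below 0.05 and its log2-fold change beyond 1 in either direction. The steps were checked on simulated counts. DESeq2 (1.42.0) and other scalings, filters and left-out libraries were alternatives. The 9 genes and all lists were chosen with earlier results of these data known.

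The replicates of a genotype differed by more than counting noise (chi-square per gene of 3.29 and 3.49), and nothing says that the replicates are more than duplicates of 1 experiment, so p-values measure only the spread between these libraries, which may be technical. Per the labels, same-numbered libraries came from the same pooled spleens, which pairs them, although their deviations from the genotype means correlated at only 0.0572. Named genes, besides the 9, are for each role list at most the 4 called genes with the largest fold change and the 3 most abundant, the 3 most abundant of each marker list, the genes nearest in profile, and Tnfrsf1b. Some genes that this rule names are not reported here. Lengths and positions came from GENCODE on GRCm38 and promoters from RefSeq on GRCm38.p6, matched by symbol.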

Additional observations from a re-analysis of the deposited data

Results flagged for a closer look

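Hba-a2 stood apart because its replicates differed in opposite directions in the 2 genotypes, each by over 1.5-fold. The log2 ratio of replicate 2 over replicate 1 was -0.77 within wild-type and 1.36 within TNFR2 KO, a difference of 2.13 between the genotypes that was not tested. Its counts were 600 and 341 in the wild-type libraries and 53.9 and 114 in the TNFR2 KO libraries. Beside it, 92.6% of the 31-base words of its transcripts also occur in Hba-a1, and the alpha sum was 140 CPM in both wild-type libraries, as against 26.1 and 27.7 CPM with TNFR2 KO. The part of the shared sequence in this difference was not tested.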

How the results depend on the processing

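The 8 lower genes stayed lower and Car2 stayed higher in TNFR2 KO cells under every scaling, filter, tool and left-out library tried, wherever the gene could be fitted. The replicate block, which pairs libraries by pool, gave 1830 called genes (13.2% of those tested) in place of 1842 (13.3%). It again called 7 of the 9, with 22 other role-list genes in place of 21, and changed the call of no gene named. Scaling on 24 NK genes moved the median of all genes to -0.58 and the share lower among called genes from 88.3% to 98.1%. It called 2784 genes (20.1% of those tested), 8 of the 9 and 37 role-list genes, with a globin sum at -2.90 and Car2 at 0.41. It turned Epb41 (-0.35), Pim1 (-0.42), Zfpm1 (-0.34), Ldb1 (-0.37), Itgb3 (-0.41) and Il2rb (-0.13). Library size alone gave a globin sum of -2.39. A mean of at least 10 CPM, which removes low genes, left 480 called genes, 3 of the 9 and 6 role-list genes. DESeq2 called 1603 genes, and without a filter 2015 were called. Leaving out 1 library gave 1650 to 1867 called genes, 6 to 7 of the 9 as lower, 0 to 1 as higher, 18 to 22 role-list genes and a globin sum from -2.37 to -2.27. The gene lost was Klf1 (-0.95, without wild-type replicate 1) and the gene gained was Car2 (1.01, without TNFR2 KO replicate 2). Tmem14c (-0.053 to 0.035), E2f2 (-0.017 to 0.015) and Alad (-0.196 to 0.015) changed sign as libraries were left out. Between replicate numbers, 17 genes passed both thresholds and 32 the adjusted p alone. DESeq2 gave 4 and 7, a mean of at least 10 CPM 2 and 13, and none of the 9 in any of these. Hba-a2 ranged from -3.16 to -1.81 as libraries were left out. The causes of these shifts were not tested. Counts of Alas2 in TNFR2 KO libraries (21 and 23) and of Epor (51 and 40) were low.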

Other observations

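Genes linked to heme breakdown and iron recycling are given here, chosen after their values were seen. Besides Hmox1, Blvrb, which encodes biliverdin reductase B, stood at 32.8 and 32.9 CPM in wild-type and at 8.61 and 8.52 CPM in TNFR2 KO libraries. Its log2-fold change was -1.94, with an adjusted p of 2.08e-10 (edgeR). Slc40a1, the iron exporter ferroportin, stood at 83.9 and 83.0 CPM against 11.1 and 11.5 CPM, a log2-fold change of -2.89. Spic, a factor of the red pulp macrophages that recycle iron, had a log2-fold change of -2.95, and Cd163, the macrophage receptor for hemoglobin bound to haptoglobin, one of -3.08. Slc40a1, Spic and Cd163 are themselves on the macrophage marker list, whose sum differed 6.94-fold in the same direction. Hmox1 and Blvrb are on the red cell enzyme list. The part of macrophages or of red cell turnover in these differences was not tested.

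A few genes of the role lists were higher in TNFR2 KO cells at adjusted p alone. Slc14a1, the red cell urea transporter, stood at 10.7 and 10.8 CPM in wild-type and at 16.8 and 17.4 CPM in TNFR2 KO libraries, with a log2-fold change of 0.67 and an adjusted p of 3.70e-05 (edgeR). Erfe, which encodes the erythroid iron hormone erythroferrone, had a log2-fold change of 0.45 with an adjusted p of 0.0185 (edgeR). Scaling on NK genes moved the median of all genes to -0.58, a shift larger than the change of Erfe and close to that of Slc14a1. The values of these genes under that scaling are not given here. Cma1, a mast cell chymase gene, was the 1 basophil or mast cell marker that was higher, at 71.9 and 73.3 CPM in TNFR2 KO libraries against 21.9 and 23.1 CPM in wild-type. These too were chosen after their values were seen.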
